A study of Mus musculus with 6 samples.

Results

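The EGF receptor family and its ligands were examined as 10 genes taken by symbol from the 46983 rows of a mouse count table. The ligands were Areg, Ereg, Hbegf, Tgfa, Btc, Epgn and Egf, and the receptors were Egfr, Erbb2 and Erbb3. All 10 symbols were found once each, and 9 of the 10 passed the filter on low counts. Poly-A RNA had been sequenced from wild-type mouse pancreatic islets, labelled as beta cells or islets, after 24 h of culture in CMRL medium at stimulating (high) or non-stimulating (low) glucose; each condition had 3 libraries. Glucose concentrations, strain, age and animals per library are not given in the sources used here. Whether replicate libraries stem from different animals or cultures is not labelled either. The p-values therefore describe the spread among these 6 samples, which may be technical.

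EGF-family ligands are made as membrane-anchored precursors and released by metalloproteases of the ADAM family. They bind receptor tyrosine kinases of the ErbB family, which pair with one another and pass the signal to the RAS-ERK, PI3K-AKT and STAT routes. ERBB2 has no known ligand and serves as a partner for the others, and ERBB3, which binds neuregulins, has little kinase activity of its own. In the pancreas the EGF receptor is known for its part in islet growth and in the response of exocrine cells to injury.

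The same 6 ligand genes had reads in both groups, at different levels for most of them. At high glucose Ereg, Btc and Hbegf rose, Egf and Areg fell, Tgfa did not pass the test, and Epgn was not detected. Of the receptors, Egfr rose by a fitted 2.80-fold, whereas Erbb2 and Erbb3 did not pass. In all, 6 of the 9 tested members passed an adjusted p of 0.05 in edgeR's quasi-likelihood test, 4 higher and 2 lower at high glucose. Of all 13996 tested genes 27.5% passed, 13.3% higher and 14.2% lower. The libraries of the groups did not overlap for the same number of tested members, 6 of 9, against 45.9% of all tested genes. The fitted value was positive for 6 of the 9, against 50.8% of all genes. The median log2 fold change (high minus low) was 0.21 for the members and 0.01 for all tested genes.

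Library totals were 14150726 to 15846235 counts at high and 10596020 to 12730985 at low glucose. RNA of other cell types was unevenly spread: 10 acinar markers, which encode digestive enzymes, took 9.51% to 19.0% of the reads at high and 36% to 48.3% at low glucose, and 8 islet endocrine markers, all of them detected in every library, took 3.22% to 8.83% at high and 2.06% to 4.36% at low glucose. Levels are given as CPM, counts divided by the scaled library size and multiplied by 1000000, with TMM scaling, which assumes that most genes do not change. Scaled by library totals instead, all genes had a median log2 fold change of 1.16, so values under that scaling are to be read against this shift. Scaling to the summed reads of 20 hormone and granule genes gave a median of 0.28. Of those 20 genes 5 rose and 2 fell with TMM scaling, so they are no neutral reference. In bulk samples, fewer cells of a type and less RNA per cell cannot be told apart. High glucose replicate 1 stood apart from the other high glucose libraries on the second principal component, which held 13.6% of the variance.

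Ereg encodes epiregulin, a ligand of the EGF receptor and ERBB4 that is induced in wounded and inflamed epithelia. It lies on chromosome 5 (91074622 to 91093646, GRCm38). Ereg had 11.3, 3.35 and 6.40 CPM in high glucose replicates 1 to 3, against 0.42, 0.00 and 0.31 CPM in low glucose replicates 1 to 3. Every high glucose library lay above every low glucose library, and the low glucose values rested on 5, 0 and 2 reads, against 319, 67 and 127 reads at high glucose. A count of 0 in low glucose replicate 2 allows up to 0.499 CPM, for counting error only. The log2 fold change was 4.63 ± 0.74 (SE), with an edgeR adjusted p of 0.00489. Ereg passed the filter on low counts only through the high glucose libraries. The level was highest in high glucose replicate 1, where 7 macrophage markers summed to 141.6 CPM, against 24.0 and 39.3 CPM in high glucose replicates 2 and 3. Over those 7 markers 1 rose and 2 fell, none was at 0 in either group, and they summed to 24.0 to 141.6 CPM at high and 134.3 to 195.1 CPM at low glucose, where Ereg was near 0. Macrophage markers were not alone in this order over high glucose replicates 1 to 3. The stellate and fibroblast (265.5, 44.3 and 74.5 CPM) and other leukocyte sums (84.23, 8.637 and 26.15 CPM) shared it. The endothelial (342.7, 163.7 and 232.6 CPM) and islet endocrine sums (49520, 23510 and 26700 CPM) shared it too. Acinar and duct sums were lowest in replicate 1, and the intestinal sum was lowest in replicate 3. The part of these cell types in the Ereg level was not tested. Without high glucose replicate 1 the Ereg log2 fold change was 4.08 and the call stood.

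The genes nearest to Ereg over the 6 libraries, by root mean square distance between mean-centred log2 CPM profiles, were Hcar2 (distance 0.224), which encodes a receptor for hydroxybutyrate and niacin, Clec4d (0.471), a lectin receptor gene of myeloid cells, and Tnc (0.476), the tenascin C gene of the extracellular matrix. Hcar2 averaged 6.51 CPM at high and 0.325 CPM at low glucose, and Tnc 39.9 CPM at high and 2.20 CPM at low glucose. These genes were picked for their likeness to Ereg, so their fold changes carry no further information about it.

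Btc encodes betacellulin, a ligand of the EGF receptor and ERBB4 that was first purified from a mouse beta-cell tumour line. The gene lies on chromosome 5 (91357261 to 91402994). Btc had 7.75, 8.64 and 8.47 CPM in high glucose replicates 1 to 3, against 2.68, 2.99 and 1.89 CPM in low glucose replicates 1 to 3. The high glucose libraries lay close together and well above all low glucose libraries. Btc rose by 1.71 ± 0.26 on the log2 scale (SE, edgeR adjusted p = 0.00385).

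Hbegf, the gene of heparin-binding EGF-like growth factor, an early-response ligand in many cell types, lies on chromosome 18 (36504927 to 36515805). Its level was 12.1, 21.3 and 15.8 CPM in high glucose replicates 1 to 3, against 7.37, 6.48 and 6.29 CPM in low glucose replicates 1 to 3. The groups did not overlap, although high glucose replicate 1 was the lowest of its group. The log2 fold change was 1.28 ± 0.25 (SE, edgeR adjusted p = 0.0101).

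Tgfa encodes transforming growth factor alpha, a ligand of the EGF receptor alone, and lies on chromosome 6 (86195223 to 86275719). Tgfa had 7.08, 13.4 and 11.8 CPM in high glucose replicates 1 to 3, against 10.4, 9.31 and 10.7 CPM in low glucose replicates 1 to 3. The groups overlapped, and high glucose replicate 1 was the lowest library of all 6. The log2 fold change of 0.08 ± 0.27 (SE) did not pass by edgeR (adjusted p = 0.839). With library totals it was 1.19 and passed, at nearly the median shift of all genes.

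Areg encodes amphiregulin, a ligand of the EGF receptor alone. The gene lies on chromosome 5 (91139599 to 91148432). Areg had 1.52, 1.30 and 1.51 CPM in high glucose replicates 1 to 3, against 5.27, 4.99 and 4.56 CPM in low glucose replicates 1 to 3. Both groups were tight and lay far apart. Areg fell by 1.77 on the log2 scale (SE 0.27, edgeR adjusted p = 0.00419). In reads the groups overlapped, with 43, 26 and 30 reads at high and 63, 30 and 29 reads at low glucose. With library totals as the scaling the log2 fold change was -0.63 with an edgeR adjusted p of 0.261, which is 1.8 below the median of all genes under that scaling. The fall of Areg is one relative to most genes.

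Egf, the gene of epidermal growth factor itself, lies on chromosome 3 (129677565 to 129755316). Egf had 6.01, 9.49 and 9.12 CPM in high glucose replicates 1 to 3, against 75.1, 126.8 and 129.7 CPM in low glucose replicates 1 to 3. All low glucose libraries lay far above all high glucose libraries. Egf fell by 3.75 on the log2 scale (SE 0.29, edgeR adjusted p = 5.70e-04), and by 2.54 with library totals, where it passed too. No other member had a fitted fall as large, and of all tested genes 6.24% had a fitted value at least 4-fold lower.

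Markers of other tissues moved with Egf. Of the 10 acinar markers 8 fell and none rose. All 8 tested intestinal epithelium markers fell, and their list of 9 summed to 27.3 to 145.1 CPM at high and 1422 to 4589 CPM at low glucose. Of that list Cdx2, the intestinal transcription factor gene, had 2, 0 and 1 reads in high glucose replicates 1 to 3 and 117, 38 and 8 reads in low glucose replicates 1 to 3, and Sis, the sucrase-isomaltase gene, had 4, 0 and 0 reads at high glucose. Within the low glucose group Egf was lowest in replicate 1 (75.1 CPM), where the acinar share was lowest (36%) and the intestinal sum highest (4589 CPM). The part of either tissue in the fall of Egf was not tested.

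Epgn, the epigen gene, on chromosome 5 (91027464 to 91035215), had 0 reads in all 6 libraries. That allows up to 0.106 to 0.151 CPM in the high and 0.251 to 0.499 CPM in the low glucose libraries, for counting error only.

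**Figure D1:**
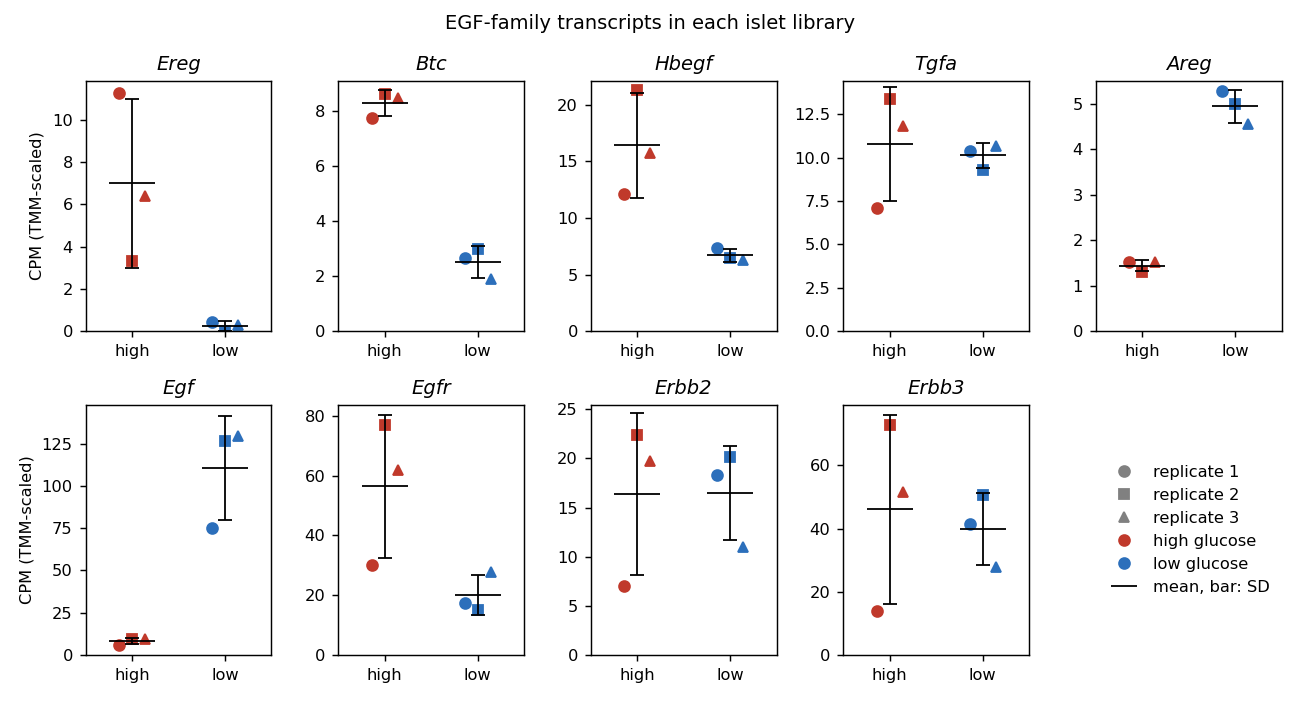
TMM-scaled CPM of the 9 detected EGF-family genes in each library, high glucose in red to the left and low glucose in blue to the right, with symbols for replicates 1 to 3 and the mean ± SD (n = 3) in black. Ereg, Btc, Hbegf and Egfr lie higher and Areg and Egf lower at high glucose with no overlap, whereas Tgfa, Erbb2 and Erbb3 overlap and have their lowest high glucose value in replicate 1.

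Shares within the family do not depend on how libraries are scaled to one another. Egf took 13.1%, 16.5% and 17.2% of the reads on the 7 ligand genes in high glucose replicates 1 to 3, against 74.2%, 84.2% and 84.5% in low glucose replicates 1 to 3. Hbegf took 26.5%, 37.1% and 29.7% at high, against 7.28%, 4.30% and 4.10% at low glucose. In reads, which favour long genes, Egf held most at low glucose, and Hbegf had the largest share in each high glucose library. Per kb of exonic length Egf still ranked first at low glucose, with 59.9% and 61.5% in replicates 2 and 3 but 44.9% in replicate 1. At high glucose, on that scale, Hbegf had 25.5%, 39.7% and 30.9% in replicates 1 to 3 and Ereg 27.8%, 7.30% and 14.7%, so Ereg ranked first in replicate 1. Btc took 16.0% ± 0.947 at high and 1.95% ± 0.709 at low glucose (SD, n = 3 each). Ereg took 14.2% ± 9.59 at high and 0.206% ± 0.207 at low glucose (SD, n = 3 each), with the widest spread among the high glucose libraries (5.82% to 24.7%). The ligand reads numbered 1294, 1151 and 1054 in high glucose replicates 1 to 3 and 1209, 906 and 976 in low glucose replicates 1 to 3. Areg took 2.81% ± 0.533 at high and 3.83% ± 1.21 at low glucose (SD, n = 3 each), with overlap between the groups. Its reads per Egf read were 0.253, 0.137 and 0.166 at high, against 0.0702, 0.0393 and 0.0352 at low glucose, so within a library Egf was reduced more than Areg.

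Ratios of reads between pairs of members behaved alike. There were 5.09, 6.65 and 5.6 Btc reads per Areg read in high glucose replicates 1 to 3, against 0.508, 0.6 and 0.414 in low glucose replicates 1 to 3. Hbegf reads per Tgfa read were 1.72, 1.59 and 1.33 at high, against 0.710, 0.696 and 0.588 at low glucose. Neither ratio overlapped between the groups. These pairs were chosen after their values were seen.

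**Figure D2:**
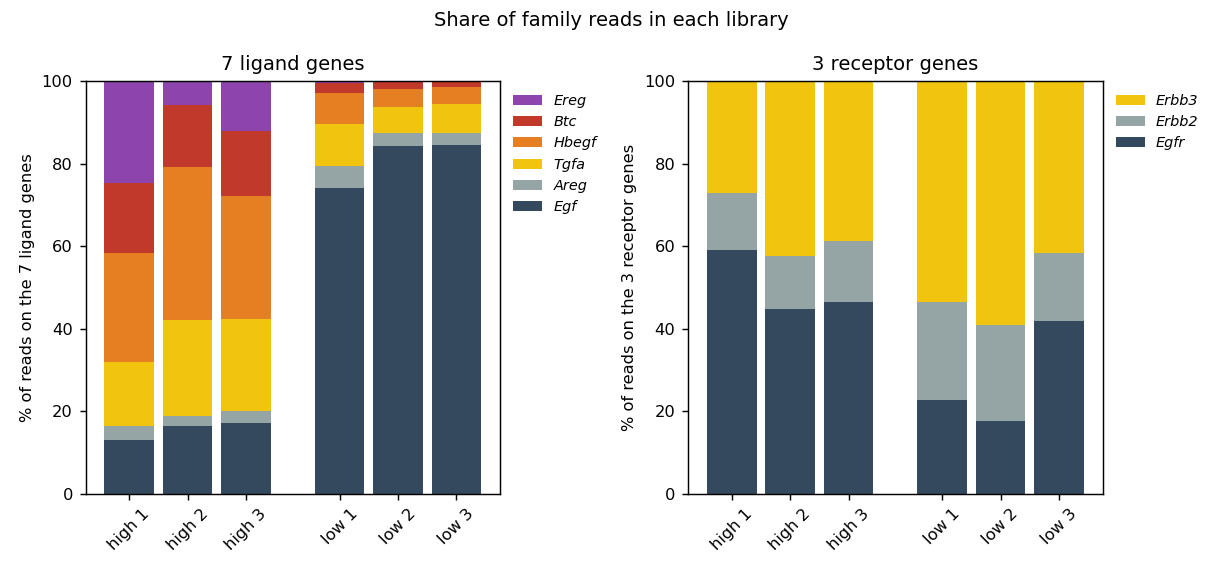
Share (%) of the reads on the 7 ligand genes (left) and on the 3 receptor genes (right) in each library, high glucose libraries left of low glucose libraries; Epgn had no reads. Egf fills 74.2% to 84.5% of the ligand bar at low glucose and 13.1% to 17.2% at high glucose, where Hbegf, Tgfa, Btc and Ereg take most of the rest, and the Egfr share is larger at high glucose in every library.

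Among the ligands, 4 are neighbours on chromosome 5 within 375.5 kb: Epgn, Ereg and Areg on the plus strand and Btc on the minus strand. Their calls differed between neighbours. Ereg and Areg, separated by 46.0 kb, went in opposite directions, and Btc, 208.8 kb beyond Areg, rose. The other annotated genes of the interval were noncoding and had at most 3 reads over the 6 libraries.

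**Figure D3:**
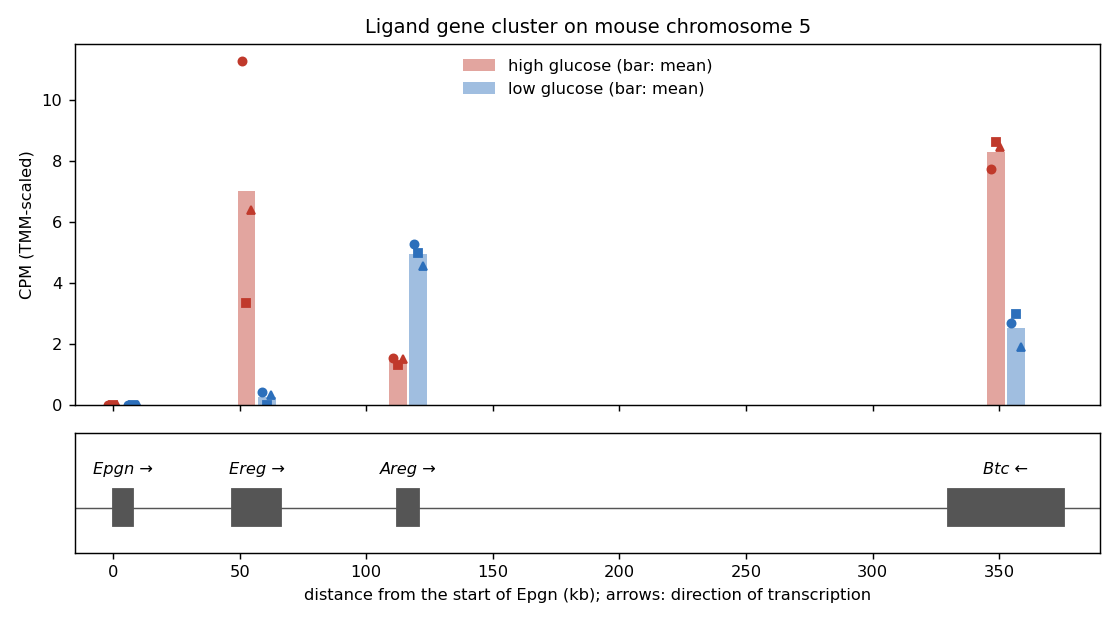
Ligand genes of chromosome 5 by distance from the start of Epgn (kb, lower panel; boxes are gene bodies, arrows the direction of transcription) and their TMM-scaled CPM in each library (upper panel; bars are means of 3 libraries, points replicates 1 to 3, high glucose in red left of low glucose in blue). Ereg and Btc are higher and Areg lower at high glucose, and Epgn is at 0.

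The promoters of Areg, Btc, Egf and Egfr are shown because these genes passed the test in different directions and 2 of them belong to the chromosome 5 group. Each is the 250 bases before the RefSeq gene start (GRCm38.p6), 5′ to 3′ on the strand of the gene. A promoter was matched for 7 of the 10 members. Capitals mark matches on either strand to 3 motifs: the cyclic AMP response element TGACGTCA, the GC box GGGCGG and the TATA box TATAAA. The places are chr5:91139349-91139598 on the plus strand for Areg, chr5:91402995-91403244 on the minus strand for Btc, chr3:129755323-129755572 on the minus strand for Egf and chr11:16751953-16752202 on the plus strand for Egfr.
Areg: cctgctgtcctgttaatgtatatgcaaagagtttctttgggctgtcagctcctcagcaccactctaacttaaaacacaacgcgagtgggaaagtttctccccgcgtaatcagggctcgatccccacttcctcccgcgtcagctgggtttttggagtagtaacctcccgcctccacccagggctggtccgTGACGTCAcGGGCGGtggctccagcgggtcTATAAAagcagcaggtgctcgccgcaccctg
Btc: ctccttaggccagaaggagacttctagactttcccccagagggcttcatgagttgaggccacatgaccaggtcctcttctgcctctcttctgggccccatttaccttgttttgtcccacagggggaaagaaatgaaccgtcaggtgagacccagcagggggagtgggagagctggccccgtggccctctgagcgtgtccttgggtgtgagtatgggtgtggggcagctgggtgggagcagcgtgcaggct
Egf: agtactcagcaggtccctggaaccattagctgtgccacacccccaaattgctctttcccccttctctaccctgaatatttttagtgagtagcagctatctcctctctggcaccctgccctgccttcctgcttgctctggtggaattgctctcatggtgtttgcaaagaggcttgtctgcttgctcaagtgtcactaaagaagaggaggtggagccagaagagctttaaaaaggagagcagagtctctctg
Egfr: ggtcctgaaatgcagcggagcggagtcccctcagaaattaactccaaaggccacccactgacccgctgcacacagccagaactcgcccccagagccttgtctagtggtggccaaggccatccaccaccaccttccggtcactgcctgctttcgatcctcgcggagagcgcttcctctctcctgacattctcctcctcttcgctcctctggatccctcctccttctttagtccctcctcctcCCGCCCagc

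The Areg window held TGACGTCA starting 61 bases, GGGCGG 52 bases and TATAAA 31 bases before the gene start. Of 32851 windows of the same length, 1.55% held TGACGTCA, 32.7% held GGGCGG and 12.4% held TATAAA. Egfr held 1 GC box and no TATAAA, and the Btc and Egf windows held none of these letters. The AP-1 motif TGANTCA and the E-box CACGTG, found in 6.75% and 6.02% of all windows, were in none of the 7 matched members. CpG dinucleotides numbered 15 in the Areg, 4 in the Btc, 0 in the Egf and 11 in the Egfr window, and the GC content was 57.2%, 59.6%, 50.4% and 60.8% in that order, against a median of 52.4%. A match of letters is a description and not a binding site.

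Egfr encodes the receptor of all 7 ligands and lies on chromosome 11 (16752203 to 16918158). Egfr had 30.1, 77.0 and 62.0 CPM in high glucose replicates 1 to 3, against 17.4, 15.1 and 27.8 CPM in low glucose replicates 1 to 3. The groups did not overlap, but high glucose replicate 1 lay near low glucose replicate 3. The log2 fold change was 1.49 ± 0.38 (SE, edgeR adjusted p = 0.0253). Its call was lost without high glucose replicate 2 (1.20, edgeR adjusted p = 0.0659), high glucose replicate 3 (1.43, 0.0727), low glucose replicate 1 (1.38, 0.0864) or low glucose replicate 2 (1.33, 0.0952).

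Erbb2, whose product is the shared partner receptor, lies on chromosome 11 (98412470 to 98437716). Erbb2 had 6.97, 22.4 and 19.7 CPM in high glucose replicates 1 to 3, against 18.3, 20.1 and 11 CPM in low glucose replicates 1 to 3. High glucose replicate 1 was the lowest of all libraries and the groups overlapped. The log2 fold change was -0.02 ± 0.44 (SE, edgeR adjusted p = 0.979).

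Erbb3, the neuregulin receptor gene, lies on chromosome 10 (128567523 to 128589652). Erbb3 had 13.9, 72.9 and 51.7 CPM in high glucose replicates 1 to 3, against 41.3, 50.5 and 27.7 CPM in low glucose replicates 1 to 3. The values at high glucose spanned more than those at low glucose, with replicate 1 again lowest. The log2 fold change was 0.21 ± 0.53 (SE, edgeR adjusted p = 0.799).

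Within the high glucose group the 3 receptors shared an order, lowest in replicate 1 and highest in replicate 2. The summed level of 10 duct markers, carried mostly by the keratin genes Krt8 and Krt18, ran in that order too, at 2076, 6470 and 5782 CPM in replicates 1 to 3, against 1020, 1169 and 1307 CPM in low glucose replicates 1 to 3. Krt7 and Tspan8 ran otherwise, with their highest high glucose level in replicate 1 (240 and 27.8 CPM). So did Cftr, with its highest in replicate 3 (1.81 CPM). The median log2 fold change of the 10 was 0.09, and 5 were positive. Cftr, a chloride channel gene of duct cells, was lower in each high glucose library (0.212, 1.5 and 1.81 CPM) than in any low glucose library (7.45, 2.33 and 7.08 CPM), without passing the test. Of these markers 4 rose (Krt7, Krt8, Krt18 and Krt19), none fell and none was at 0, while Sox9, a duct transcription factor gene, did not pass, at 19.9 CPM at high and 22.7 CPM at low glucose. The stellate and fibroblast markers had their highest high glucose sum in replicate 1, at 265.5 CPM, against 44.3 and 74.5 CPM in replicates 2 and 3; of these 9 markers 4 fell, none rose and none was at 0, and they summed to 309.0 to 404.6 CPM at low glucose. The 10 acinar markers also ran in the order of the receptors, at 53310, 138500 and 129600 CPM in high glucose replicates 1 to 3. In low glucose replicates 1 to 3 they summed to 383600, 850200 and 839200 CPM, and 8 of them fell at high glucose. The part of these cell types in the receptor levels was not tested.

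In reads, Egfr took 59.1%, 44.7% and 46.5% of the receptor total in high glucose replicates 1 to 3, against 22.6%, 17.6% and 41.8% in low glucose replicates 1 to 3. The groups were separate, by a small margin to low glucose replicate 3. Egfr reads per Egf read were 5, 8.12 and 6.80 at high, against 0.232, 0.119 and 0.215 at low glucose. Erbb3 reads per Erbb2 read overlapped, at 1.99, 3.26 and 2.62 at high and 2.26, 2.51 and 2.51 at low glucose. None of these ratios and shares was tested.

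Per kilobase of exonic length (RPKM with TMM-scaled sizes), the order of the members' levels differed between the groups. At high glucose the order was Erbb3 (7.67 ± 4.97), Egfr (4.98 ± 2.12), Hbegf (3.39 ± 0.957), Erbb2 (3.14 ± 1.58), Btc (1.83 ± 0.104), Ereg (1.70 ± 0.970), Tgfa (1.66 ± 0.507), Areg (1.19 ± 0.104) and Egf (0.728 ± 0.169), as RPKM with SD and n = 3. Among neighbours in that order, only Areg and Egf had libraries that did not overlap, apart from the step to Epgn at 0. At low glucose the order was Egf (9.81 ± 2.73), Erbb3 (6.62 ± 1.91), Areg (4.07 ± 0.295), Erbb2 (3.16 ± 0.926), Egfr (1.78 ± 0.598), Tgfa (1.56 ± 0.112), Hbegf (1.39 ± 0.119), Btc (0.557 ± 0.126) and Ereg (0.0592 ± 0.0528), again as RPKM. Here the steps from Erbb3 to Areg, from Hbegf to Btc and from Btc to Ereg were without overlap. Egf went with the lowest detected ligand level per length at high glucose and the highest at low glucose.

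**Figure D4:**
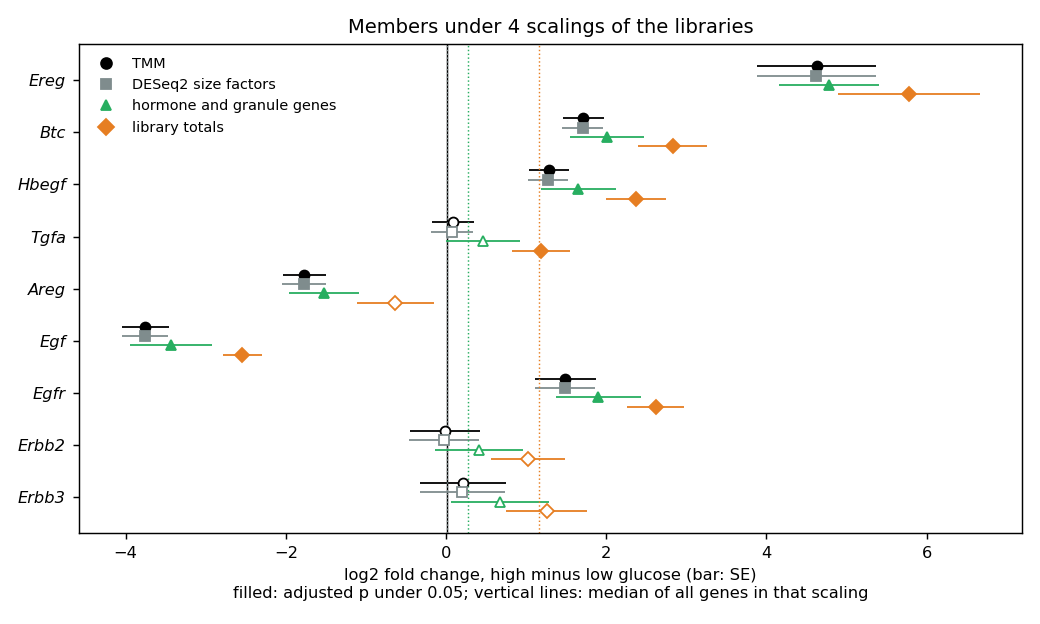
Log2 fold change (high minus low glucose, ± SE) of the 9 tested members under 4 scalings of the libraries; filled symbols have an adjusted p under 0.05 and vertical lines mark the median of all genes under each scaling (0.01 with TMM, 1.16 with library totals). Ereg, Btc, Hbegf and Egfr lie above and Areg and Egf below the median line in all 4, and Areg with library totals (-0.63) is not past the threshold.

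The remaining receptor of the family, Erbb4, and the neuregulin genes were hardly counted. Erbb4 had 0 reads in each high glucose library, against 6, 12 and 4 reads in low glucose replicates 1 to 3, and was below the filter. Against a floor of 3 counts over the high glucose group it was at least 20.5-fold lower at high glucose with TMM scaling. With library totals it was at least 9.35-fold lower. These bounds cover counting error of the high glucose group only, as the 22 low glucose reads were taken without error. Nrg1, a ligand of ERBB3 and ERBB4, had 13, 13 and 11 reads in high glucose replicates 1 to 3 and 4, 0 and 0 reads in low glucose replicates 1 to 3, a log2 fold change of 1.78 ± 0.84 (SE, edgeR adjusted p = 0.149) that passed with library totals (2.79). It passed also without low glucose replicate 1, where both remaining low glucose libraries are at 0 reads, so that no fold is given. Nrg2 had 6, 1 and 4 reads at high and 5, 2 and 1 at low glucose. Nrg3 had 0, 1 and 0 reads at high and 4, 0 and 0 at low glucose, and Nrg4 had 0, 1 and 6 at high and 4, 2 and 0 at low glucose; none of these 3 passed the filter.

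Library totals called 8349 of all 13996 tested genes higher and 629 lower, and scaling to hormone and granule genes 1016 higher and 1056 lower. With 1 library left out, 14102 to 14635 genes were tested. Without low glucose replicates 1, 2 and 3 in turn, 1102, 708 and 1282 were higher and 1581, 1035 and 1589 lower. Without high glucose replicates 1, 2 and 3 in turn, 2793, 1103 and 827 were higher and 2892, 1469 and 1172 lower. Counts of the signalling lists under these scalings and with a library left out are to be read against those. The list for release (shedding) of ligands from the membrane held 12 genes, both proteases and genes such as Rhbdf2 whose products assist them. Of these 3 rose and 0 fell, against 13.3% higher and 14.2% lower over all tested genes. With library totals 10 rose, and with scaling to hormone and granule genes 2 rose. The median log2 fold change of the list was 0.25. Adam17, the main sheddase of several EGF-family ligands, averaged 37.1 CPM at high and 27.1 CPM at low glucose, a log2 fold change of 0.45 ± 0.13 (SE, edgeR adjusted p = 0.0338) that was not called with the replicate number as a block (adjusted p = 0.0506). Rhbdf2, whose product iRhom2 carries ADAM17 to the cell surface, rose by 1.84 ± 0.38, and Adam8, a metalloprotease gene of leukocytes and injured epithelia, rose by 3.24 ± 0.30. Only 1 of the list rose without low glucose replicate 1 or 2, and 2 without low glucose replicate 3 or high glucose replicate 2 or 3.

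Of 22 feedback inhibitors of the receptors and of ERK, 6 rose and 2 fell, against 13.3% higher and 14.2% lower over all tested genes (16 and 0 with library totals, 4 and 0 with scaling to hormone and granule genes), with a median of 0.22. Dusp4, an ERK phosphatase gene, had 31.8 CPM at high and 2.78 CPM at low glucose on average and rose by 3.46 ± 0.39 (SE, edgeR adjusted p = 0.00148). Spred3, an inhibitor of the RAS route, rose by 1.92 ± 0.27, and Rnf41, the ubiquitin ligase gene whose product degrades ERBB3, rose by 0.78 ± 0.15. Spry1, a Sprouty inhibitor gene, fell by 1.27 (SE 0.25), but by 0.08 and without a call with library totals. Leaving out low glucose replicate 2 left 2 higher and 0 lower, low glucose replicate 3 left 3 and 2, and high glucose replicate 3 left 4 and 1.

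Of 20 adaptor and RAS-ERK cascade genes 4 rose and none fell, against 13.3% higher and 14.2% lower over all tested genes (17 and 0 with library totals, 2 and 0 with scaling to hormone and granule genes), with a median of 0.21. Nras rose by 1.12 ± 0.22 (SE, edgeR adjusted p = 0.00965), the docking protein gene Gab2 by 1.05 ± 0.21, the adaptor gene Shc1 by 0.76 ± 0.16 and the MEK gene Map2k1 by 0.73 ± 0.16. Only 2 rose without low glucose replicate 2, and 6 rose without high glucose replicate 1. In the PI3K-AKT and STAT branch 3 of 16 rose and 3 fell, close to the 13.3% and 14.2% of all tested genes (11 and 0 with library totals, 2 and 0 with scaling to hormone and granule genes), with a median of -0.12. Src rose by 1.26 ± 0.25 and Stat3 by 0.92 ± 0.23, while the S6 kinase gene Rps6kb1 fell by 0.93 (SE 0.17); with library totals its direction turned, to 0.27 higher at high glucose, without a call. Without low glucose replicate 2, 0 rose and 1 fell; without high glucose replicate 3, 1 rose and 1 fell; without low glucose replicate 3 or high glucose replicate 2, 3 rose and 1 fell.

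Of 16 receptor trafficking genes, 4 rose and 1 fell, against 13.3% higher and 14.2% lower over all tested genes (14 and 0 with library totals, 0 and 0 with scaling to hormone and granule genes), with a median of 0.29. The endosomal sorting gene Hgs rose by 0.83 ± 0.17 (SE, edgeR adjusted p = 0.0117), Stam2, its partner gene, by 0.53 ± 0.13, and the clathrin adaptor gene Ap2m1 by 0.58 ± 0.14. The epsin gene Epn1 fell by 0.65 (SE 0.18); with library totals its direction turned, to 0.54 higher at high glucose, without a call. Without low glucose replicate 1 or 2, or high glucose replicate 2 or 3, only 1 rose.

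ERK-responsive transcripts, which growth factors induce in many cell types and other signals induce too, rose in 14 of 24 cases and none fell (19 with library totals, 14 with scaling to hormone and granule genes), with a median of 1.42, against 13.3% higher and a median of 0.01 over all tested genes. Fosl1, an AP-1 subunit gene, averaged 25.6 CPM at high and 0.321 CPM at low glucose and rose by 6.25 ± 0.46 (SE, edgeR adjusted p = 5.70e-04). Lif, a cytokine gene, rose by 4.88 ± 0.27, Plaur, the urokinase receptor gene, by 3.40 ± 0.19, and Ier3, an early-response gene, by 4.96 ± 0.39. With 1 library left out 11 to 17 rose, and 1 fell without high glucose replicate 1. The list was written with earlier results of these data known, so its count is no independent evidence of direction.

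**Figure D5:**
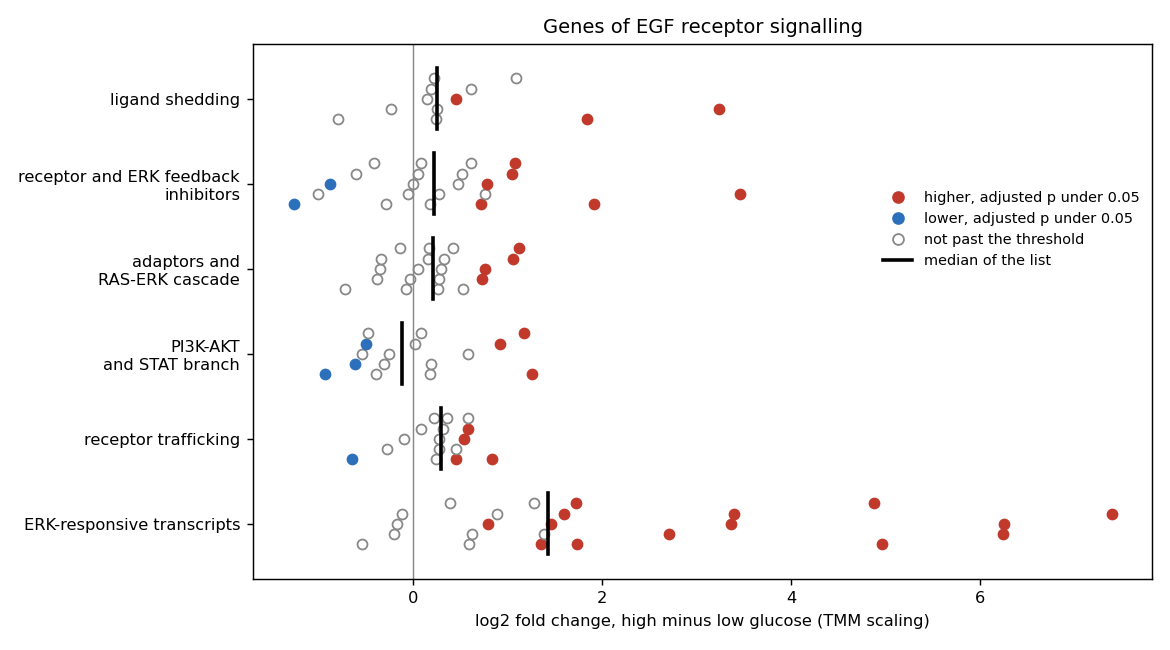
Log2 fold change (high minus low glucose, TMM scaling) of each tested gene in 6 lists of EGF receptor signalling, 1 point per gene; red is higher and blue lower with an adjusted p under 0.05, open points did not pass, and black bars are list medians. The medians lie between -0.12 and 0.29 for the first 5 lists and at 1.42 for the ERK-responsive transcripts.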

How the data were processed

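RNA-seq read counts per gene were analysed for 6 libraries. The deposited values were raw counts, 1 column per library; STAR 2.7.3a, HTSeq 0.6.1p1 and the GRCm38 build are named per the submitters' processing notes, while the annotation release and strand setting are not given in the sources used here. Columns were matched to samples by name. Symbols, coordinates and exonic lengths came from GENCODE M21; 495 of 46983 IDs had no name. Totals were 10596020 to 15846235 counts, and intervals or floors from counts cover counting error only.

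High glucose was compared with low glucose by edgeR 4.0.16 (quasi-likelihood F-test, R 4.3.3) with TMM scaling and filterByExpr (minimum count 10, minimum total 15), which kept 13996 genes. Benjamini-Hochberg adjustment ran over all of them, with 0.05 as the threshold. Standard errors were taken as the log2 fold change over the root of F. RPKM divides TMM-scaled CPM by the union of exons in kb. The members and lists were chosen with earlier results of these data known; no list was tested as a set. Named genes were all members, up to 4 called genes with the smallest p per list, and the 3 genes nearest to Ereg; 1 gene the rule names is not reported here. Counts of genes with overlapping exons cannot be told apart by strand: Erbb2 shares 9 exonic bases with Mien1, and Ereg 141 with Gm19610, which had 2 reads in all. Nrg4 shares 368 with Fbxo22, which had 3242 reads over the 6 libraries.

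No pair of libraries of a group agreed within sampling noise (chi-square per degree of freedom at least 16.2). Replicate numbers are in the sample titles of both groups. Deviations from the group means correlated at 0.40, 0.26 and 0.25 between same-numbered libraries and between -0.31 and 0.07 otherwise. Same-numbered libraries may thus be paired, but no label says so, and the main fit had no block. The fit blocked on that number is given beside a named gene whose call it changed, or a count it moved by over 1.5 times. It called 4670 of all tested genes, 2197 higher and 2473 lower, against 3848 without the block. Alternatives were other scalings, filters, DESeq2 1.42.0, limma-voom (limma 3.58.1), the block and each library left out. The fit was tested on simulated data, where it recovered 76 of 100 genes changed 4-fold and 18 of 100 changed 2-fold. Of its 104 calls 10 were false. The other genes of the 13996 were unchanged there, whereas 27.5% were called in the data. The adjustment depends on that share, so the recovery rates do not carry over directly to these data. A gene that did not pass may still differ by 2-fold where its standard error is wide. Figures used matplotlib 3.10.9.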

Additional observations from a re-analysis of the deposited data

How the results depend on the processing

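The members' calls (6, with 4 higher and 2 lower) were the same with DESeq2 size factors, scaling to hormone and granule genes, no filter, DESeq2, limma-voom and the replicate block (6 each). With library totals 6 were called, but 5 higher and 1 lower, as Tgfa passed and Areg did not. The stricter filter, of at least 10 CPM by library totals in 3 libraries, removed Ereg and Areg and left 3 higher and 1 lower. Btc and Hbegf passed the stricter filter only through the high glucose libraries, so their calls under it add no support. With 1 library left out, 5 to 6 members were called, 3 to 4 higher and 2 lower in every case. Btc, Hbegf and Egf kept their direction and call in all alternatives, with that limit for Btc and Hbegf under the stricter filter. Ereg did so in all that tested it, and Egfr was lost in 4 of the 6 fits with a library left out.

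The members that did not pass changed sign under some alternatives, and the cause was not tested. Library totals shift all genes. Erbb2 was 1.03 with library totals (-0.14 relative to the median of all genes), 0.41 with scaling to hormone and granule genes, 0.083 with no filter, 0.43 without both libraries numbered 1 (an alternative chosen after seeing the data), and -0.30 to 0.35 with 1 library left out (0.06 without low glucose replicate 1, 0.15 without low glucose replicate 2, 0.35 without high glucose replicate 1). Erbb3 was -0.030 with limma-voom and -0.028 with the replicate block, and -0.28 (without high glucose replicate 2) to 0.65 with 1 library left out. Tgfa was -0.032 with the stricter filter, -0.0037 with limma-voom and -0.094 (without high glucose replicate 2) to 0.31 with 1 library left out. With library totals Rps6kb1 was 0.27 and Epn1 0.54, both higher at high glucose.

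Over all genes 3848 were called (1861 higher, 1987 lower). Library totals gave 8978 (8349 and 629), scaling to hormone and granule genes 2072 (1016 and 1056), and leaving out both libraries numbered 1 gave 5628 (2792 and 2836). With 1 library left out the range was 1743 to 5685 (708 to 2793 higher, 1035 to 2892 lower). The pathway lists held 40 called genes, 88 with library totals, 24 with scaling to hormone and granule genes, 43 with the replicate block (feedback inhibitors 8 higher and 3 lower, ERK-responsive 16 higher, PI3K-AKT and STAT 3 higher and 2 lower; Adam17 was the one named gene whose call the block changed) and 18 to 54 with 1 library left out. Depth limits Areg, Ereg and Btc most: 1 read was worth 0.0354 to 0.0504 CPM at high and 0.0837 to 0.166 CPM at low glucose.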
